A study of Rattus norvegicus with 16 samples.

Results

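The genes described here encode the coat of the lipid droplet and the proteins that set the rate at which its triglyceride is broken down. They are G0s2, Plin2, Pnpla2, Hilpda, Angptl4, Lipe and Mgll, measured in isolated rat pancreatic islets. Every probe set whose current or former gene symbol in the array's annotation is one of these 7 was taken, which gave 11 of the 15923 probe sets on the array, whose single-gene probe sets name 10412 genes. Plin2 had 2 probe sets and Mgll had 4.

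Cells store neutral lipid in droplets, and perilipins such as Plin2 coat the droplet surface. Lipolysis proceeds in order: Pnpla2 (adipose triglyceride lipase) removes the first fatty acid from triglyceride, Lipe (hormone-sensitive lipase) cleaves diacylglycerol, and Mgll (monoacylglycerol lipase) releases the last fatty acid from glycerol. G0s2 and Hilpda are small proteins that bind and inhibit Pnpla2, and Angptl4 is a secreted inhibitor of lipoprotein lipase, which takes fatty acids out of circulating triglyceride. PPARγ is a nuclear receptor that fatty acids and synthetic ligands activate and that drives lipid storage genes in adipocytes.

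The study crossed a virus with a compound. Islets were exposed for 32 h to an adenovirus at a multiplicity of 50 viral particles per cell, either a null virus or one encoding PPARγ, and then kept for 16 h in 0.004% DMSO (vehicle) or in 200 nM GW347845, a synthetic PPARγ agonist. All islets therefore carried an adenovirus; no uninfected islets were among the samples, and the labels do not name the promoter or the species of the viral PPARγ. Nothing in the labels tells whether the replicates came from different islet preparations, so the p-values measure only the spread between these arrays, which may be technical.

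The deposited table had 16 columns, 4 in each of the 4 groups. The columns of null virus with vehicle replicate 2 and null virus with GW347845 replicate 2 were identical in 100% of probe sets, so both were left out. That left 3 arrays (replicates 1, 3 and 4) in each null virus group and 4 in each PPARγ virus group. The values are array intensities on a linear scale, and the number of arrays limits their precision. The Pparg probe set had a mean intensity of 33.0 ± 5.74 (SD, n = 3) under null virus with vehicle and 35.8 ± 13.7 (SD, n = 3) under null virus with GW347845. It reached 5593 ± 582 (SD, n = 4) under PPARγ virus with vehicle and 5510 ± 640 (SD, n = 4) under PPARγ virus with GW347845. The islet label was borne out by the beta cell markers: the 6 of 10 on the array all passed the filter on low values, and Ins1 (insulin) lay between 4626.9 and 7093.1. Of 10 adipocyte markers, 7 were on the array and 2 passed the filter, Slc2a4 and Fabp4. The markers Lep (leptin, 0.9 to 3.7), Cebpa (1.0 to 3.1) and Plin1 (the adipocyte droplet coat, 9.8 to 20.4) stayed at low intensity in every array. Cfd (adipsin) was also under the filter in every array, with group means of 18.1 and 20.8 under the null virus and 22.7 and 32.4 under the PPARγ virus, with vehicle and GW347845 respectively.

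Some arrays stood apart in an endocrine marker. Gcg, the glucagon gene of alpha cells, was 2621.2 to 3423.3 in the null virus arrays used and 3606.2 to 4191.7 in replicates 1 and 3 of both PPARγ virus groups. In PPARγ virus replicate 2 it was 420.8 with vehicle and 180.8 with GW347845, and in replicate 4 it was 1231.3 and 1221.3. Among the arrays used, these 4 fall in the PPARγ virus groups only, so the calls are given with and without them. The null virus array left out for its 2 labels had a Gcg of 1043. Without the 4 arrays, only replicates 1 and 3 of each PPARγ virus group remain, so those fits rest on fewer arrays. In whole islets, fewer cells of a type and less RNA per cell cannot be told apart.

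Differences are in log2(intensity + 4.6) from a limma model over all 14 arrays, with adjusted p-values over the 10078 probe sets that exceeded an intensity of 39.3 in at least 4 arrays; a probe set was called at an adjusted p under 0.05. Fold changes are on that scale and understate the change of weak probe sets. Of the 11 probe sets, 7 were tested. The other 4, the Lipe probe set and 3 of Mgll, never exceeded the filter in any array and are given as intensities only.

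When PPARγ virus with GW347845 was set against null virus with vehicle, G0s2, Plin2 and Angptl4 rose: 4 of the 7 tested probe sets were called, where 0.605% of all tested probe sets rose. Against null virus with GW347845, the same 3 genes rose in PPARγ virus with GW347845, again in 4 of 7 probe sets against 0.635% of all. Both comparisons use the same PPARγ virus with GW347845 arrays. Pnpla2, Hilpda and Mgll were not called in either.

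The sequence before the annotated start of the 3 called genes is shown because their RNA rose together; all of it is from RefSeq (build GRCr8), on the strand of the gene and 5′ to 3′. Each stretch is the 250 bases that end just before the start: chr13:107335949-107336198 (minus strand) for G0s2, chr5:106229019-106229268 (minus strand) for the upstream start of Plin2, and chr7:15258682-15258931 (minus strand) for Angptl4. Capitals mark TATAA on the strand of the gene.
G0s2: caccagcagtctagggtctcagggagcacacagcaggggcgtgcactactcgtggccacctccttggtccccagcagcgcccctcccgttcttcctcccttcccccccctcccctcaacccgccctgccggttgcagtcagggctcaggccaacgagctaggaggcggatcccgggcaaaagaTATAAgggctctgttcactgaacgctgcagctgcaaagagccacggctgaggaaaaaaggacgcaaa
Plin2: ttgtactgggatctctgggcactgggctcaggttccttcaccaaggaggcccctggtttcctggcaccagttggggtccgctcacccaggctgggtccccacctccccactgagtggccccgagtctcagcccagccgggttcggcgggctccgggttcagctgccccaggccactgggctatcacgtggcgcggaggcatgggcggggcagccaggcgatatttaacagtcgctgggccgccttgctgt
Angptl4: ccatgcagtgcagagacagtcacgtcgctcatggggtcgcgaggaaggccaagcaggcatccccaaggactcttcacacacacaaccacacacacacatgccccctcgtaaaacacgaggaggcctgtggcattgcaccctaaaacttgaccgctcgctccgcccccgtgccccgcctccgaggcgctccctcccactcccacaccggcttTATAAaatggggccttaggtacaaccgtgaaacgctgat
TATAA was found in G0s2, at position -67 from the start, and in Angptl4, at position -39, and not in Plin2; 16.729% of 33469 RefSeq promoter windows hold it in these 250 bases. RefSeq windows of 250 bases before to 50 after the start were found for 6 of the 7 genes, with 2 starts for Plin2. The 7 windows were searched on both strands for AGGTCANAGGTCA, the direct repeat that PPARγ binds with its partner RXR. With at most 2 mismatches it was found in 0 of the 7 windows and in 3.774% of all windows. With at most 1 mismatch, 0.439% of all windows held it, and 0.054% held it exactly. A lone AGGTCA was found in 1 of the 7, in G0s2 at position 24 after the start, and in 16.179% of all windows. These matches describe the letters in short windows, and distant elements were not searched.

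G0s2, the Pnpla2 inhibitor, was highest where the PPARγ virus and GW347845 were combined (probe set 1388395_at). Its intensity was 253.8, 228.2 and 259.4 under null virus with vehicle and 267.5, 255.2 and 287.5 under null virus with GW347845. It was 364.8, 488.5, 367.5 and 508.8 under PPARγ virus with vehicle, and 895.2, 1255.6, 737.4 and 1167.1 under PPARγ virus with GW347845. Every PPARγ virus array lay above every null virus array, and within the PPARγ virus every GW347845 array lay above every vehicle array. The combined treatment gave a log2 change of 1.99 ± 0.17 (SE), a 3.96-fold rise (limma adjusted p = 2.09e-05). The virus effect in GW347845 was 1.86 ± 0.17 (adjusted p = 5.92e-05). Under the PPARγ virus, GW347845 raised G0s2 by 1.21 ± 0.16, or 2.31-fold (limma adjusted p = 0.00817, and 1.58e-05 with the replicate number as a block). Without the 4 arrays low in Gcg, these 3 changes were 1.70, 1.57 and 1.14 (limma adjusted p = 6.20e-05, 1.57e-04 and 0.0285). The GW347845 call under the PPARγ virus was lost without PPARγ virus with GW347845 replicate 4 (adjusted p = 0.0516), when only the 2 groups compared were fitted (0.114), and with all 16 columns (0.0732).

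Plin2, the droplet coat protein, was read by 2 probe sets, and both rose. Probe set 1390383_at was 498.8, 400.8 and 440.6 under null virus with vehicle and 563.2, 414 and 549.8 under null virus with GW347845. It was 875.7, 944.5, 546.5 and 1168.9 under PPARγ virus with vehicle and 1146, 1707.9, 1009.8 and 1515.2 under PPARγ virus with GW347845. Its vehicle arrays under the PPARγ virus all lay above the null virus vehicle arrays, but replicate 3 (546.5) lay below 2 of the 3 null virus GW347845 arrays. The combined change was 1.55 ± 0.23, a 2.94-fold rise (limma adjusted p = 0.00350), and the virus effect in GW347845 was 1.38 ± 0.23 (adjusted p = 0.00860).

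Probe set 1382680_at of Plin2 read 139.5, 143.5 and 109 under null virus with vehicle and 143.9, 122.6 and 143.8 under null virus with GW347845. It read 253.7, 274.8, 197 and 293.7 under PPARγ virus with vehicle and 253.6, 404.5, 256.2 and 305.8 under PPARγ virus with GW347845. All 8 PPARγ virus arrays lay above all 6 null virus arrays, while the vehicle and GW347845 arrays overlapped under either virus. The combined change was 1.18 ± 0.18, or 2.26-fold (limma adjusted p = 0.00384), and the virus effect in GW347845 was 1.11 ± 0.18 (adjusted p = 0.00641). Without the arrays low in Gcg, the combined changes of the 2 probe sets were 1.26 and 0.95 (limma adjusted p = 0.0156 and 0.0232), and their virus effects in GW347845 were 1.09 and 0.88 (0.0322 for both). Without null virus with GW347845 replicate 3, the virus effect in GW347845 was called for neither (adjusted p = 0.0691 for 1390383_at and 0.0541 for 1382680_at).

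Angptl4, the secreted lipoprotein lipase inhibitor, was high in each PPARγ virus array that also had GW347845 (probe set 1388924_at). It was 83.6, 67.5 and 46.7 under null virus with vehicle and 153.9, 77.6 and 112.9 under null virus with GW347845. It was 271.4, 116.7, 81.3 and 131.3 under PPARγ virus with vehicle, and 722.1, 890.4, 420.8 and 581.1 under PPARγ virus with GW347845. The last group lay above all 10 other arrays, while the other 3 groups overlapped one another. The combined change was 3.20 ± 0.35, a 9.22-fold rise (limma adjusted p = 2.20e-04). The virus effect in GW347845 was 2.46 ± 0.35, or 5.51-fold (adjusted p = 0.00324), and the GW347845 effect under the PPARγ virus was 2.17 ± 0.33, or 4.51-fold (adjusted p = 0.0220, and 5.71e-04 with the replicate block). Without the arrays low in Gcg, the combined and virus changes were 3.01 and 2.27 (limma adjusted p = 0.0108 and 0.0460), and the GW347845 change was 1.85 and was not called (0.659). The last call was also lost when only the 2 groups were fitted (0.114) and without any 1 of PPARγ virus with vehicle replicates 2, 3 or 4 or PPARγ virus with GW347845 replicates 1, 2 or 4 (adjusted p from 0.0617 to 0.0956).

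**Figure D1:**
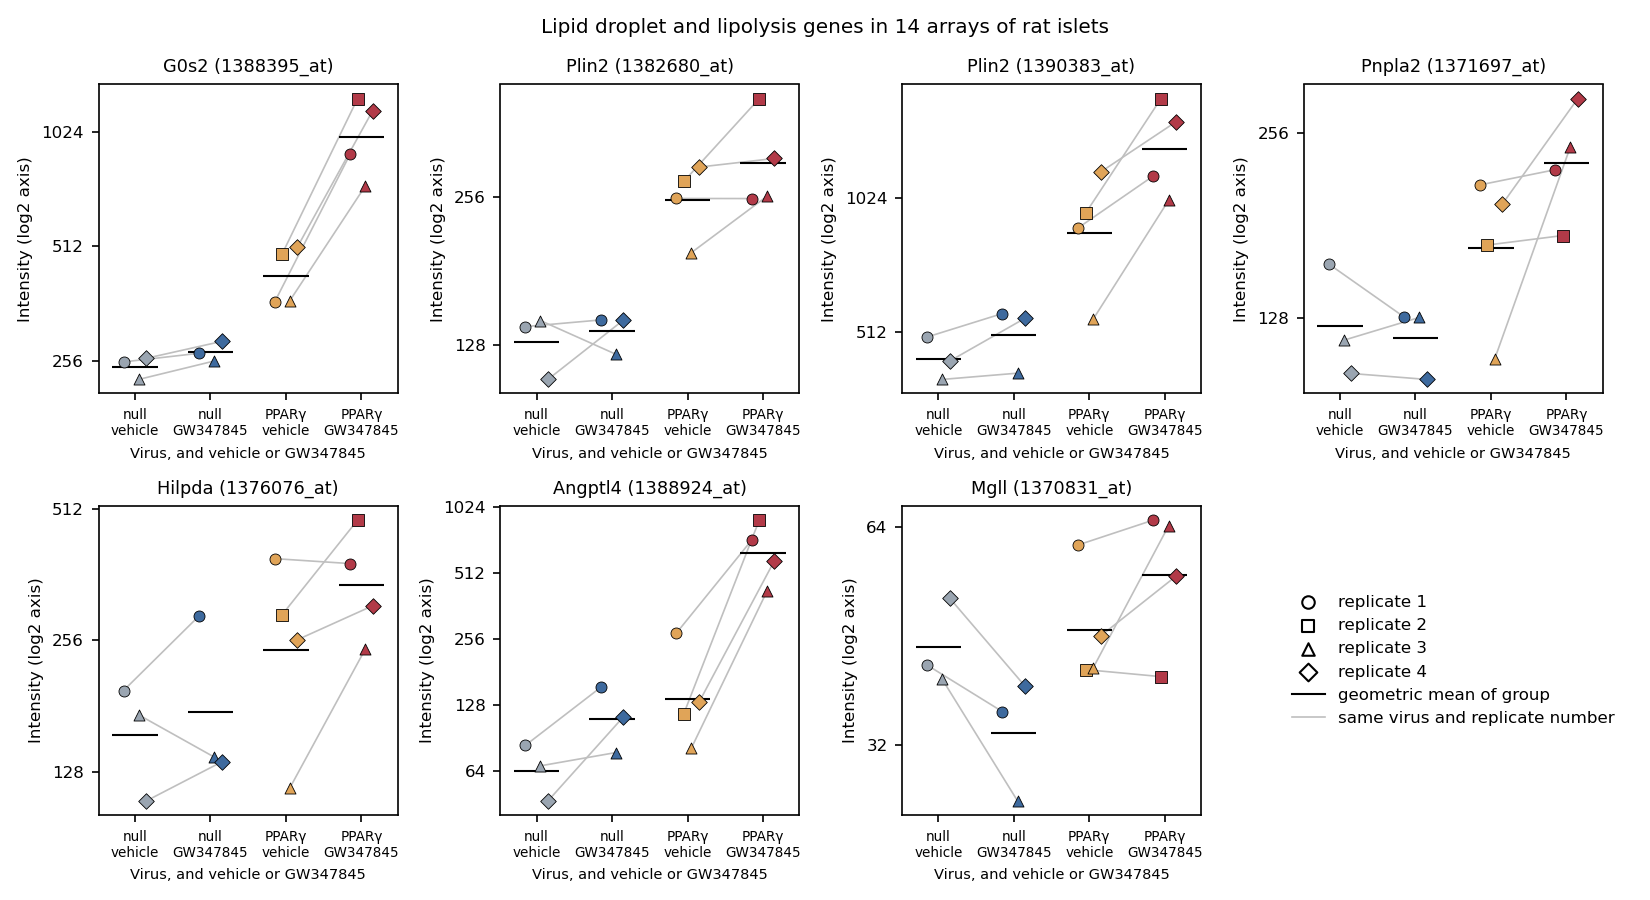
Intensity (log2 axis) of the 7 tested probe sets in the 14 arrays by group; marker shape gives the replicate number, black bars the geometric mean of a group, and grey lines join arrays of the same virus and number. G0s2 runs from 228.2 to 1255.6 with the PPARγ virus and GW347845 arrays on top, while the Hilpda and Mgll groups lie closer together.

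The other inhibitor of Pnpla2, Hilpda (a hypoxia-inducible droplet protein), varied widely within groups (probe set 1376076_at). Its intensity was 196.4, 172.7 and 109.6 under null virus with vehicle and 291.3, 138.2 and 134.7 under null virus with GW347845. It was 394.2, 293.1, 117.2 and 256.7 under PPARγ virus with vehicle and 384, 483.3, 244.1 and 307.3 under PPARγ virus with GW347845. Replicate 3 was the lowest array of both PPARγ virus groups, and replicate 1 was the highest array of both null virus groups. The combined change of 1.13 ± 0.37 was not called (limma adjusted p = 0.323), nor was the virus effect in GW347845, 0.95 ± 0.37 (0.413).

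Pnpla2, the lipase itself (probe set 1371697_at), was not called in any comparison. It was 156.9, 117.9 and 104.1 under null virus with vehicle and 128.6, 128.4 and 101.8 under null virus with GW347845. It was 210.9, 168.4, 110 and 196.3 under PPARγ virus with vehicle, and 223.3, 174.5, 243 and 291.5 under PPARγ virus with GW347845. The last group lay above all 6 null virus arrays. Its combined change was 0.86 ± 0.22 (limma adjusted p = 0.127) and its virus effect in GW347845 0.92 ± 0.22 (adjusted p = 0.0876). The latter was called with the replicate number as a block over all groups (adjusted p = 0.0396), without PPARγ virus with vehicle replicate 3 (0.0318) and without PPARγ virus with GW347845 replicate 2 (0.0496).

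For Lipe, the hormone-sensitive lipase, probe set 1387132_at stayed between 5.6 and 13 in 13 of the 14 arrays and reached 39.1 in 1 PPARγ virus array with GW347845. It was not tested. Mgll was near the filter on 1 probe set and far under it on the other 3. Probe set 1370831_at read 41.3, 39.5 and 51.1 under null virus with vehicle and 35.6, 26.8 and 38.6 under null virus with GW347845. It read 60.5, 40.7, 40.9 and 45.3 under PPARγ virus with vehicle and 65.5, 39.8, 64.3 and 54.8 under PPARγ virus with GW347845. Its combined change of 0.31 ± 0.20 and its virus effect in GW347845 of 0.66 ± 0.20 were not called (limma adjusted p = 0.761 and 0.214). The latter was called with the block over all groups (adjusted p = 0.0489).

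The 3 untested Mgll probe sets gave no pattern common to all 3. Probe set 1375247_at lay between 1.3 and 2.7 in the null virus arrays, between 1.3 and 4.8 under PPARγ virus with vehicle and between 7.6 and 23.8 under PPARγ virus with GW347845. Probe set 1375355_at ranged from 1.9 to 16 with its highest group mean under null virus with GW347845. Probe set 1388644_at ranged from 2.5 to 5.9. Its means were 2.7 in both null virus groups, 4.2 under PPARγ virus with vehicle and 4.5 under PPARγ virus with GW347845. All 3 stayed under the filter of 39.3 in every array.

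In vehicle, the PPARγ virus alone gave no call among these genes. By limma, 0 of the 7 probe sets passed, where 0.0397% of all rose, although 4 of 7 had an unadjusted p under 0.05, as did 446 of all 10078. The virus effect in vehicle was 0.78 ± 0.17 for G0s2 (limma adjusted p = 0.227), 0.93 ± 0.18 for Plin2 1382680_at (0.114), 0.93 ± 0.23 for Plin2 1390383_at (0.323) and 1.03 ± 0.35 for Angptl4 (0.794). For Pnpla2 it was 0.41 ± 0.22, for Hilpda 0.63 ± 0.37 and for Mgll 0.07 ± 0.20, each with an adjusted p of 1.00. With the replicate number as a block over all groups, G0s2 and both Plin2 probe sets were called (adjusted p = 0.0236, 0.0473 and 0.0333). Plin2 1382680_at was also called without PPARγ virus with vehicle replicate 3 (0.0489) and without PPARγ virus with GW347845 replicate 2 (0.0493). For 3 of 7 probe sets (G0s2 and both of Plin2) every PPARγ virus array lay above every null virus array in vehicle, against 2.45% of all. The same held for 6 of 7, all but Hilpda, in GW347845, against 4.56% of all, and for 6 of 7, all but Mgll, in the combined comparison, against 4.06%.

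Under the null virus, GW347845 gave no call at this number of arrays. By limma, 0 of 7 were called with a background of 0%, and also 0 of 7 with the replicate block (background 0%); 0 of the 7 had an unadjusted p under 0.05 (1 with the block), beside 95 of all 10078 (411 with the block). The G0s2 change was 0.13 ± 0.19, with a 95% interval from -0.27 to 0.52. The Plin2 changes were 0.18 ± 0.24 and 0.07 ± 0.19, that of Pnpla2 -0.06 ± 0.23 and that of Hilpda 0.18 ± 0.40. For Angptl4 it was 0.74 ± 0.38 (95% interval -0.06 to 1.55); its unadjusted p with the block was 0.00879 and its adjusted p 1.00. No probe set had every GW347845 array above every vehicle array (0 of 7, against 2.08% of all). Mgll 1370831_at had every GW347845 array below every vehicle array, with a change of -0.35 ± 0.21, as did 2.53% of all probe sets.

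Under the PPARγ virus, GW347845 raised G0s2 and Angptl4, 2 of 7 probe sets against 0.0595% of all. Same-numbered arrays of a virus deviated together, so a fit with the replicate number as a block within each virus is given beside it: it called 3 of 7, against 0.357% of all, adding Plin2 1390383_at (0.62 ± 0.10, adjusted p = 0.0191; 0.62 ± 0.21 and 1.00 without the block). For G0s2 and Angptl4 alone, 2 of 7, every GW347845 array lay above every vehicle array, against 0.645% of all. The other changes were 0.24 ± 0.16 for Plin2 1382680_at, 0.45 ± 0.20 for Pnpla2, 0.49 ± 0.34 for Hilpda and 0.23 ± 0.19 for Mgll, none called with or without the block.

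**Figure D2:**
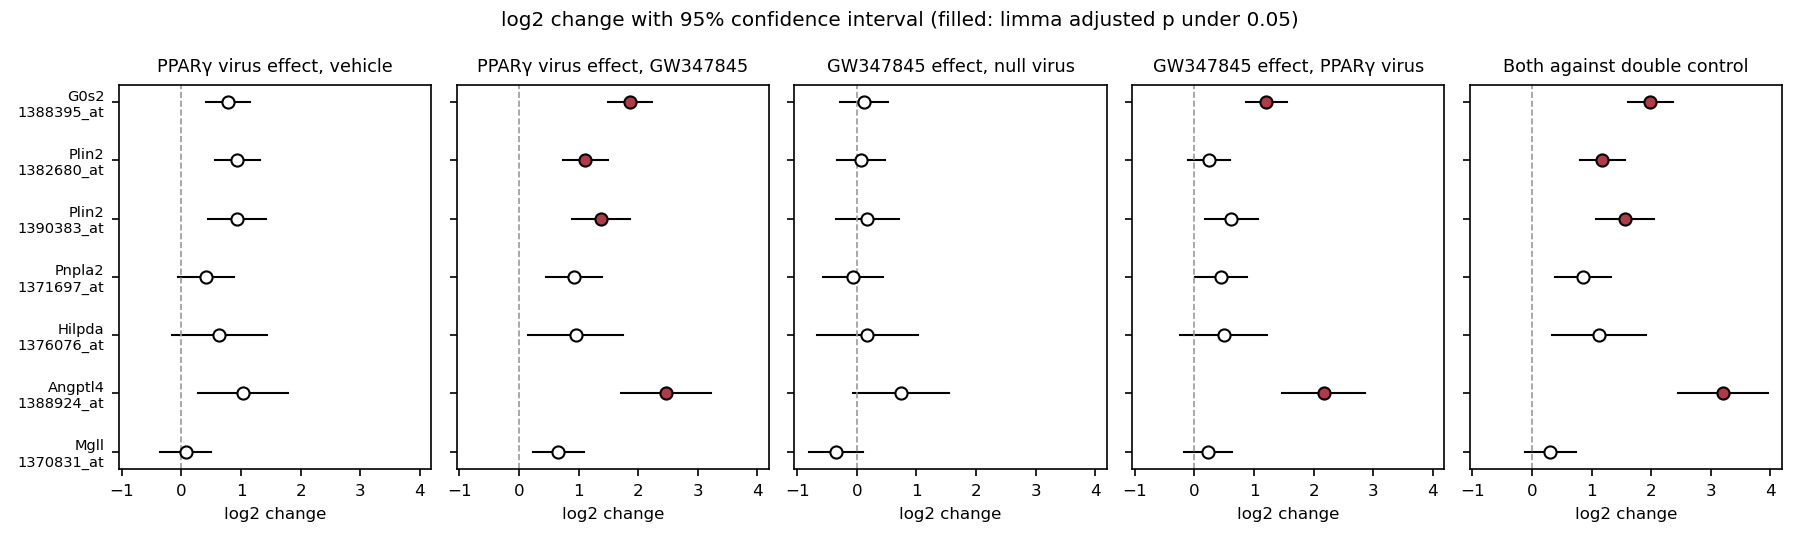
log2 change with 95% confidence interval for the 7 tested probe sets in the 5 pairwise comparisons; filled points had a limma adjusted p under 0.05. G0s2, both Plin2 probe sets and Angptl4 are filled in the combined comparison and in the virus effect in GW347845, and G0s2 and Angptl4 in the GW347845 effect under the PPARγ virus.

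Pairs of the same virus and replicate number show how evenly each gene responded to GW347845. The share of all probe sets with such pair counts was not computed, so the counts are a description. The 4 pairs of G0s2 under the PPARγ virus rose by 1.00 to 1.35 on the log2 scale, and under the null virus its 3 pairs differed by 0.07 to 0.16. Angptl4 was higher with GW347845 in 4 of 4 PPARγ virus pairs (1.40 to 2.88) and in 3 of 3 null virus pairs (0.19 to 1.20). Plin2 1390383_at was higher in 4 of 4 (0.37 to 0.88) and 3 of 3 (0.05 to 0.32). Pnpla2 was higher in 4 of 4 PPARγ virus pairs, from 0.05 to 1.11, with replicate 3 the highest, and in 1 of 3 null virus pairs. Hilpda was higher in 3 of 4 and 2 of 3 pairs. Mgll 1370831_at was lower in 3 of 3 null virus pairs (-0.49 to -0.19) and higher in 3 of 4 PPARγ virus pairs. The 3′ to 5′ ratio of the actin control probe sets, a sign of RNA quality, was also higher with GW347845 in 3 of 3 and 4 of 4 pairs. Its mean log2 differences were 0.38 and 0.24, with ratios from 7.58 to 14.9. The Gapdh ratio was higher in 1 of 3 and 3 of 4 pairs. It was 18.9 in null virus with GW347845 replicate 3 and at most 12.6 in every other array. Without that array, neither Plin2 probe set was called in the virus effect in GW347845. The part of RNA quality in these results was not tested.

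**Figure D3:**
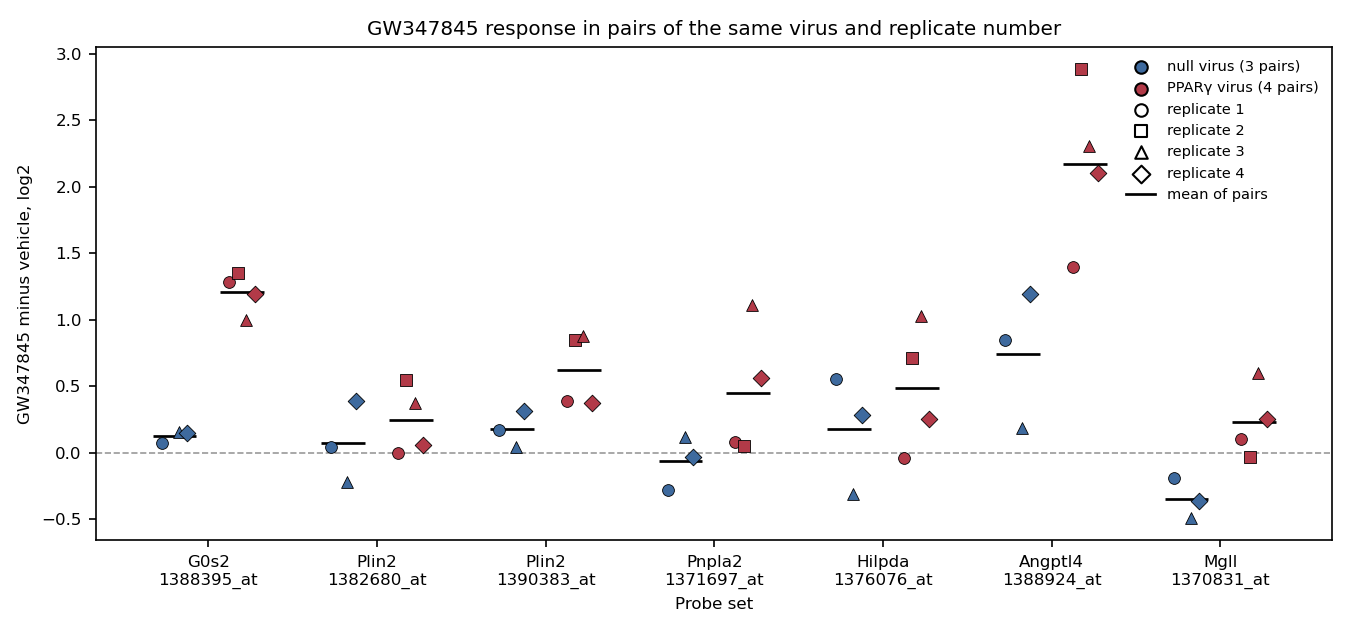
GW347845 minus vehicle, as a log2 difference, for each pair of arrays of the same virus and replicate number; blue is the null virus (3 pairs), red the PPARγ virus (4 pairs), and bars are means. The red G0s2 points lie between 1.00 and 1.35 and the blue ones between 0.07 and 0.16.

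Whether the response to GW347845 differed between the viruses was tested by the interaction. Without a block, 0 of 7 were called by limma, with a background of 0%; 2 of the 7 had an unadjusted p under 0.05, as did 143 of all. With the block within each virus, 1 of 7 was called, G0s2, against 0.0496% of all. The response of G0s2 was larger under the PPARγ virus by 1.08 ± 0.11 (limma adjusted p = 0.00464 with the block; 1.08 ± 0.25 and 1.00 without it). For Angptl4 the difference was 1.43 ± 0.50, with an adjusted p of 1.00 and of 0.377 with the block. The differences of the others were 0.17 and 0.44 for Plin2, 0.51 for Pnpla2, 0.31 for Hilpda and 0.58 for Mgll, none called.

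The median change of the 7 probe sets is given beside that of all tested probe sets as a description only. The genes were chosen with earlier results of these data known. The comparisons also share arrays, and Plin2 counts with both of its probe sets. The median of the 7 was 1.18 in the combined comparison, where the median of all tested probe sets was -0.03. For the virus effect in GW347845 it was 1.11 against -0.03. It was 0.78 against 0.00 for the virus effect in vehicle and 0.49 against -0.02 for GW347845 under the PPARγ virus. Under the null virus it was 0.13 against 0.00, with 5 of 7 positive, while in each of the other 3 GW347845 or virus contrasts and the combined one all 7 were positive.

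Arrays that were high in G0s2 were also high in Plin2. Over the 14 arrays, G0s2 and Plin2 1390383_at had a Pearson r of 0.943, and 0.821 once group means were subtracted; the 2 Plin2 probe sets had 0.954 and 0.838. Hilpda and Angptl4 had 0.827 over all arrays and 0.888 within groups, while G0s2 and Angptl4 had 0.903 and 0.19. The most alike of all tested genes to G0s2 was Dgat2, which makes triglyceride (0.972, and 0.865 within groups), followed by Fabp4 (0.965 and 0.667), Srp9 (0.943 and 0.576) and Plin2. Dgat2 was also first for Plin2 1390383_at (0.966 and 0.842), followed by S100a14 (0.945 and 0.887), G0s2 and Ublcp1 (0.939 and 0.867). For Angptl4 the first 4 were Fabp4 (0.936 and 0.39), Igf1 (0.934 and 0.649), Mgst1 (0.923 and 0.512) and C8h15orf39 (0.923 and 0.461). All these r are across arrays that share the 4 groups and the scaling of the array, and are given as a description.

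Within the PPARγ virus groups, G0s2 and Plin2 were highest in the arrays that were low in Gcg. In both PPARγ virus groups, replicates 2 and 4 had the 2 highest values of G0s2 and of Plin2 1390383_at. The null virus array left out for its 2 labels had a Gcg of 1043 and a G0s2 of 147.5, which was below all 14 arrays used. Its labels do not settle whether it had GW347845, and the relation of Gcg to G0s2 was not tested. For Angptl4 the 2 highest arrays were not replicates 2 and 4 in either group, since replicate 1 was the highest with vehicle and the next highest with GW347845. The summed intensity of 5 islet hormones other than insulin and amylin was 4640 to 9224 under null virus with vehicle, 5442 to 7457 under null virus with GW347845, 998.5 to 9837 under PPARγ virus with vehicle and 498.3 to 8968 under PPARγ virus with GW347845. Of 9 duct markers, 7 were on the array and 6 passed the filter, with summed intensities of 4086 to 5355 under the null virus and 4489 to 5407 under the PPARγ virus. The duct keratin Krt19 was called in the same 2 comparisons as Plin2, with group means of 99.0 and 95.2 under the null virus and 172.5 and 243 under the PPARγ virus, with vehicle and GW347845 respectively. The other 5 duct markers that were tested were not called. In the order null virus with vehicle, null virus with GW347845, PPARγ virus with vehicle and PPARγ virus with GW347845, Spp1 had means of 860.4, 816.5, 642.3 and 521.3, Krt7 of 1119, 1085, 1233 and 1225, and Krt8 of 1543, 1549, 1655 and 1510. Krt18 had means of 889.2, 947.7, 1126 and 1174, and Slc4a4 of 94.7, 98.7, 114.2 and 149.2. The part of these markers in the level of the lipid droplet genes was not tested. Without the arrays low in Gcg, the combined comparison and the virus effect in GW347845 each called 4 of 7 probe sets. Of all tested probe sets, 68 and 78 rose in these 2 comparisons. The GW347845 effect under the PPARγ virus then called 1 of 7, where 2 of all rose.

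**Figure D4:**
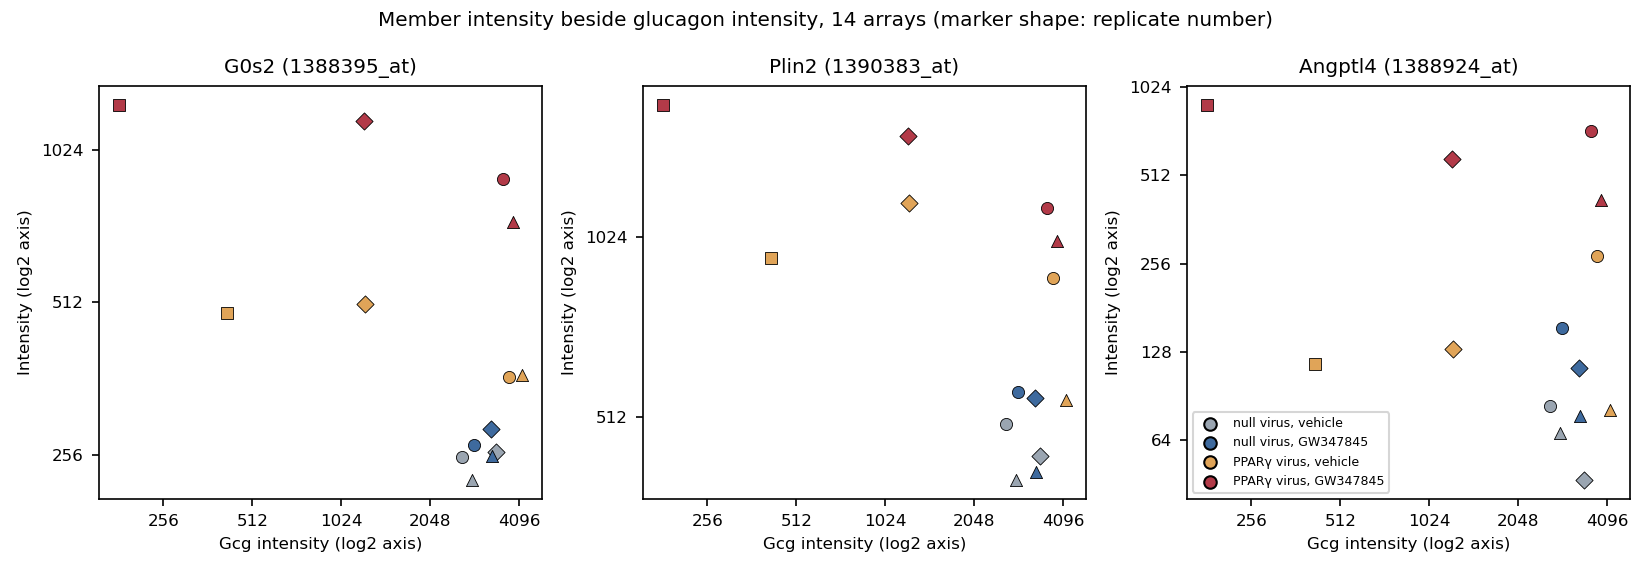
Intensity of G0s2, Plin2 (1390383_at) and Angptl4 against Gcg intensity in the same array (both log2 axes); colour is the group and marker shape the replicate number. PPARγ virus replicates 2 and 4 lie to the left, at a Gcg of 180.8 to 1231.3. For G0s2 all 8 PPARγ virus arrays lie above the 6 null virus arrays. Those 6 all lie at a Gcg of 2621.2 to 3423.3, so none is low in Gcg.

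Few other genes of droplets and lipolysis passed the test. Of 30 other genes of the droplet coat, assembly and budding, 22 were on the array and 17 were tested, and by limma 0 passed in any of the 6 contrasts. In the combined comparison their median was 0.19 and 1 of 17 had an unadjusted p under 0.05, as did 855 of all 10078. Cav1 (caveolin) had 0.72 ± 0.34, Mettl7b 0.37 ± 0.18 and Rab18, a droplet GTPase, 0.26 ± 0.14 (limma adjusted p = 0.585, 0.595 and 0.685).

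Of 30 other neutral lipid hydrolases and cofactors, 24 were on the array and 12 were tested. Here 1 of 12 rose in the combined comparison and 2 of 12 in the virus effect in GW347845, against 0.605% and 0.635% of all tested probe sets. By limma, 5 and 3 of the 12 had an unadjusted p under 0.05 in these comparisons, beside 855 and 926 of all 10078. Fabp4, a fatty acid carrier that adipocytes and macrophages make, had group means of 17.0, 28.1, 48.2 and 572 in the order null virus with vehicle, null virus with GW347845, PPARγ virus with vehicle and PPARγ virus with GW347845. Its combined change was 4.70 ± 0.39 (limma adjusted p = 1.29e-05), its virus effect in GW347845 4.10 ± 0.39 (6.49e-05) and its GW347845 effect under the PPARγ virus 3.42 (7.37e-04, and 0.137 without the arrays low in Gcg). Its interaction of 2.81 was not called without a block (adjusted p = 1.00) and was called with the block within each virus (0.00104). Aqp7, the glycerol channel, rose by 1.05 ± 0.17 in the virus effect in GW347845 (adjusted p = 0.00641). Its combined change was 0.69 ± 0.17 (0.102). Aqp7 was weak, with group means of 31.2, 23.3, 35.2 and 53.35 in the same order. Only its mean under PPARγ virus with GW347845 exceeded the filter on low values. Both null virus means of Fabp4 were also under that filter. The changes of both genes are therefore measured from weak null virus values. Both genes may also have passed the filter largely through the PPARγ virus with GW347845 arrays, where they are high. Their calls in comparisons with that group are thus not free of the filter. Abhd12 and Abhd6, which hydrolyse monoacylglycerols, had combined changes of 0.71 ± 0.20 and -0.32 ± 0.14 (0.202 and 0.534). The summed adipocyte markers were 101.8 to 161.1 in the other 3 groups and 350.8 to 881.6 under PPARγ virus with GW347845. The sum includes Fabp4, whose own mean was 572 in that group and at most 48.2 in the others. Slc2a4, the other adipocyte marker that passed the filter, had means of 44.7, 43.1, 40.95 and 42.5 in the same order. Cfd had its highest mean (32.4) under PPARγ virus with GW347845. Lep, Cebpa and Plin1 were at low intensity throughout. The summed leukocyte and macrophage markers were 447.8 to 743.8 under the null virus, 525.1 to 894.9 under PPARγ virus with vehicle and 483.4 to 732.6 under PPARγ virus with GW347845, with 0 calls.

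Of 22 extracellular lipases and their regulators, 18 were on the array and 12 were tested. In the combined comparison 1 of 12 had an unadjusted limma p under 0.05, beside 855 of all 10078, which is a like share. Of the 12, 1 rose, where 0.605% of all tested probe sets rose. This was Lpl, the lipoprotein lipase that Angptl4 inhibits, with group means of 136.8, 196.9, 238.9 and 524.2 in the order given for Fabp4. Its combined change was 1.83 ± 0.34 (limma adjusted p = 0.0177). The call was lost without any 1 of null virus with vehicle replicates 1, 3 or 4 or PPARγ virus with GW347845 replicates 1 or 3 (adjusted p from 0.0547 to 0.107). Its GW347845 effect under the PPARγ virus was 1.15, with an adjusted p of 0.793, and of 0.00995 with the block. Angptl8, Sel1l and Sdc1 had combined changes of 0.43 ± 0.25, 0.27 ± 0.14 and 0.26 ± 0.24 (limma adjusted p = 0.724, 0.637 and 0.862).

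Of 29 genes of the cAMP and insulin control of lipolysis, 25 were on the array and 18 were tested; by limma 0 passed in any contrast, and 3 of 18 had an unadjusted p under 0.05 in the combined comparison, where 855 of all 10078 did. The adenylate cyclase Adcy3 had a combined change of -0.50 ± 0.18, the protein kinase A subunits Prkacb and Prkar2b -0.45 ± 0.18 and -0.41 ± 0.13 (limma adjusted p = 0.391, 0.484 and 0.324). Since Hilpda and Angptl4 are also known to respond to hypoxia, 32 further hypoxia responsive genes were read, of which 30 were on the array and 27 were tested. In the virus effect in GW347845, the median was 0.31 with 26 of 27 positive, where the median of all tested probe sets was -0.03. By limma, 7 of 27 had an unadjusted p under 0.05, as did 926 of all 10078. Of the 27, 1 rose, Bnip3l (a mitophagy receptor, 0.60 ± 0.13, limma adjusted p = 0.0413), where 0.635% of all tested probe sets rose. In the combined comparison the median was 0.16 against -0.03 of all, and 4 of 27 had an unadjusted p under 0.05, as did 855 of all. There 1 of 27 rose, Higd1a (a mitochondrial protein, 0.68 ± 0.14, limma adjusted p = 0.0401), where 0.605% of all tested probe sets rose. Each of these calls was lost in 12 of 27 alternatives, with adjusted p up to 0.176 and 0.173. These included leaving out 1 array: for Bnip3l null virus with vehicle replicate 3, null virus with GW347845 replicates 1, 3 or 4, PPARγ virus with vehicle replicates 3 or 4, or PPARγ virus with GW347845 replicates 1, 3 or 4. For Higd1a they were null virus with vehicle replicates 1, 3 or 4, null virus with GW347845 replicate 1, PPARγ virus with vehicle replicates 3 or 4, or PPARγ virus with GW347845 replicates 1, 3 or 4. Bnip3l had 0.58 in the combined comparison (adjusted p = 0.0539), the angiogenic peptide Adm 0.88 ± 0.34 (0.454) and the pyruvate dehydrogenase kinase Pdk1 0.55 ± 0.19 (0.324). For GW347845 under the null virus, the median of these genes was -0.10, with 6 of 27 positive, where the median of all tested probe sets was 0.00. For the virus effect in vehicle it was 0.12, with 19 of 27 positive. For GW347845 under the PPARγ virus it was 0.11, with 23 of 27 positive. The part of hypoxia in the levels of Hilpda and Angptl4 was not tested.

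**Figure D5:**
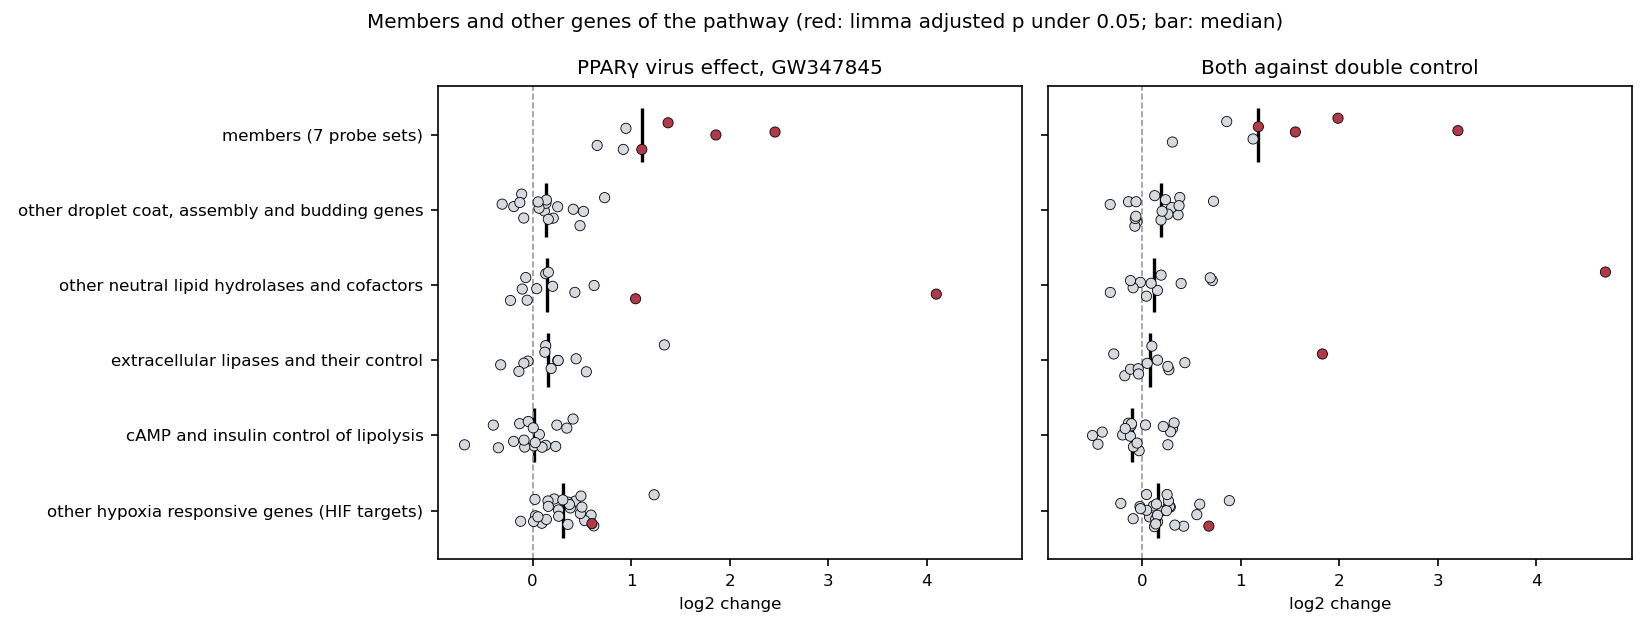
log2 change of the 7 tested probe sets and of the tested genes of 5 related lists, for the virus effect in GW347845 and the combined comparison; red points had a limma adjusted p under 0.05 and bars are medians. The medians of the 5 lists lie between -0.10 and 0.31, and those of the 7 probe sets at 1.11 and 1.18.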

How the data were processed

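RNA of rat islets was measured on an expression array. The authors deposited 1 intensity per probe set and array on a linear scale, scaled so that the mean after trimming 2% at each end is 150.0 in every column; the software that made them and the genome build are not stated in the labels or file headers. Values were used as deposited, as log2(intensity + 4.6), with 4.6 the 10th percentile of positive values. Probe sets above 39.3 (40th percentile) in at least 4 arrays were tested, without 57 controls. A mean per group was fitted with limma 3.58.1 (R 4.3.3, lmFit and eBayes with a trend) on 14 arrays, with Benjamini-Hochberg adjustment over 10078 probe sets at 0.05. The design had been written for 16 columns. The script was tested on simulated data.

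Same-numbered arrays deviated together within each virus (7 of 7 pairs, r from 0.445 to 0.702), so the number was also fitted as a block there. Across viruses 6 of 12 pairs were over 0.1 (-0.139 to 0.433).

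The members and gene lists were chosen with earlier results of these data known. All member probe sets are named. List genes are named if called in any contrast, with up to 3 more per list by smallest p in the combined comparison; the list's gene is read from its probe set with the highest mean. Likeness is given for the genes called, as the 4 single-gene probe sets with the highest r. Protein sequences were not used here.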

Additional observations from a re-analysis of the deposited data

Results flagged for a closer look

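Lipe, the hormone-sensitive lipase, had 1 array far from the others of its group: under PPARγ virus with GW347845 its intensity was 39.1 in 1 array, and the next highest was 8.3, a gap of 0.969 of the group's range. In all, 22 groups of 4 arrays were examined in this way, and chance marks about 1 in 20.

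The response of G0s2 to GW347845 differed between the viruses when the replicate number was a block within each virus. It was larger under the PPARγ virus by 1.08 on the log2 scale (limma adjusted p = 0.00464), where 0.0496% of all tested probe sets were called. Without the block the same difference had an adjusted p of 1.00.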

How the results depend on the processing

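Of the 42 results for single probe sets, 10 were calls. Across 28 alternatives, 31 of the 42, called or not, stayed on their side of the threshold. Calls were lost in some alternatives for both Plin2 probe sets in the virus effect in GW347845. The same held for G0s2 and Angptl4 in the GW347845 effect under the PPARγ virus. In 6 results the sign changed in at least 1 alternative, and none of these was called. The combined comparison called 4 probe sets in all 27 alternatives run for it (of 7 tested, or of 6 with the filter at the 60th percentile), and GW347845 under the null virus called 0 in all 28. For GW347845 under the PPARγ virus, 2 were called, but 1 with all 16 columns, 1 without the arrays low in Gcg (an alternative chosen after seeing the data), 0 with only the groups compared, and 0 to 2 with 1 array left out. The virus effect in GW347845 called 4, and 2 to 5 with 1 array left out; with the replicate block over all groups it called 6, where 211 of all probe sets were called in place of 71. The virus effect in vehicle called 0, 3 with the block over all groups (34 in place of 4 of all), and 0 to 1 with 1 array left out. The interaction called 0, and 1 with the block either within each virus or over all groups. The replicate block within each virus called 3 for GW347845 under the PPARγ virus, 40 in place of 6 of all probe sets. The fit over all groups assumes that numbers pair arrays across viruses, where 6 of 12 pairs of arrays had a correlation over 0.1. The cause of each difference was not tested. Leaving out 1 array leaves 2 or 3 in its group, and the probe sets of Lipe and 3 of Mgll lie too low to be read.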

Other observations

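The array deposited under both a vehicle and a GW347845 label of the null virus was left out of the comparisons. Its G0s2 intensity was 147.5, below all 14 arrays used, the lowest of which was 228.2. Its Plin2 intensities were 161.4 (1382680_at) and 482.3 (1390383_at), and its Angptl4 intensity was 106.6. Pnpla2 was 171.6, above every null virus array used, and Hilpda was 205.9. Gcg was 1043, below every null virus array used, and Pparg was 28.1.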
